A study of Homo sapiens with 36 samples.

Results

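The genes described here are 10 ephrin and Eph receptor genes, EFNA1, EFNA3, EFNA5, EFNB2, EFNB3, EPHA2, EPHA4, EPHA7, EPHB1 and EPHB3. They were taken by name from the 22 human ephrin and Eph receptor genes, and are 10 of the 20136 protein-coding genes of the annotation. The choice was made with earlier results of these data known. Counts at these members beside the share of all genes therefore cannot show enrichment of the family. A region was assigned to a gene when it overlapped the stretch from 2.5 kb upstream of the start site to the gene's end by at least 1 bp, in hg19 coordinates. The study profiled chromatin of DU145, an established human prostate cancer cell line, by ChIP-seq for PHF19, MTF2, EZH2, SUZ12 and H3K27me3. The control cells carried a control hairpin (shCTR), and the knockdown cells carried shPHF19L#4, a hairpin against the long isoform of PHF19. Peak lists of 2 replicates were used for PHF19, EZH2 and SUZ12 in shCTR cells and for H3K27me3 and MTF2 in both kinds of cells, 14 lists in all. In addition, 5 tables of regions from DiffBind, a program that compares read counts between groups, gave a mean read concentration per group on a log2 scale, for PHF19 against its input and for the other 4 targets in shPHF19L#4 against shCTR cells.

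The ChIP-seq data of knockdown cells come from 1 hairpin in 1 cell line, so in them a change owed to loss of PHF19 and one owed to anything else the hairpin did cannot be told apart. ChIP-qPCR of the study, with a further hairpin, was not analysed here. The sequencing depth of the libraries is unknown. The identity of the cells could not be checked against marker genes, because no expression values were analysed here. The sequence of the hairpin target, shown because all knockdown values rest on it, was found in a coding exon of PHF19 on the minus strand of hg19, at chr9:123620389-123620409.
shPHF19L#4 target: gccacacatttgagagcatca

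Ephrins are membrane-bound ligands of the Eph receptors, the largest family of receptor tyrosine kinases, and signal between touching cells in cell sorting, migration and axon guidance. Ephrin-A proteins are held in the membrane by a lipid (GPI) anchor, whereas ephrin-B proteins span it and can themselves pass a signal into the cell that carries them. EZH2 and SUZ12 are core subunits of Polycomb repressive complex PRC2, which places the repressive mark H3K27me3, and PHF19 and MTF2 are related accessory subunits that bring the complex to DNA rich in unmethylated CpG.

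The members differed in how many lists and tables had a region at them. PHF19 regions enriched over input lay at 2 of the 10 members, EFNA3 and EFNB2, and at 4.65% of all protein-coding genes. EZH2 regions of the knockdown comparison lay at 5 members (EFNA3, EFNB2, EFNB3, EPHB1 and EPHB3) against 9.55% of all genes. The same 5 members held regions of the MTF2 comparison, which touched 9.03% of all genes. SUZ12 regions lay at 1 member, EFNA3, against 2.44% of all genes, and H3K27me3 regions at 2 members, EPHB1 and EPHB3, against 3.53%. All member regions in the 4 knockdown tables had a higher concentration in shPHF19L#4 than in shCTR cells. This direction was shared with nearly the whole of each table (2407 of 2408 EZH2, 508 of 508 SUZ12, 1048 of 1049 H3K27me3 and 2539 of 2546 MTF2 regions), so it does not set the members apart. The tables list only regions that passed the authors' thresholds. A gene with no listed region was therefore not shown to be unchanged.

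Regions called in both replicates lay at the same 2 members as the table for PHF19, EFNA3 and EFNB2, against 3.35% of all genes, and the other targets are given in turn. In shCTR cells EZH2 regions of this kind lay at 1 member, EFNA3 (2.22% of all genes), and SUZ12 regions at 0 members (0.253% of all genes). H3K27me3 regions lay at 5 members in shCTR cells, EFNA3, EFNB2, EFNB3, EPHA4 and EPHB1, against 13.2% of all genes. In shPHF19L#4 cells they also lay at 5 members, with EPHB3 listed and EPHA4 not, against 18.8% of all genes. MTF2 regions lay at 3 members in shCTR cells, EFNA3, EFNB2 and EPHB3 (5.01% of all genes), and at 5 in shPHF19L#4 cells, the same 3 with EFNB3 and EPHB1 (9.82% of all genes). Long genes meet regions more often. Of the 3754 genes whose stretch measured 100 kb or more, 16.1% held a region of the EZH2 table and 15.5% one of the MTF2 table. The stretches of EFNA5, EPHA4, EPHA7 and EPHB1 measured 297, 159, 182 and 468 kb, and of these 4 genes EPHB1 held a listed region.

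The replicate lists differed widely in size, which bears on each count of peaks at a member. The PHF19 lists held 1072 and 14218 peaks in replicates 1 and 2, with peaks at 2 and 8 members (3.79% and 23.4% of all genes). The MTF2 lists of shCTR cells held 2516 and 32254 peaks, with peaks at 3 and 8 members (5.87% and 49.6% of all genes). The 8 members with a peak were the same for both targets in replicate 2, EPHA2 and EPHA7 being those without. The H3K27me3 lists covered 108 and 30.4 Mb in shCTR cells and 96.9 and 159 Mb in shPHF19L#4 cells, so the order of the cells differed between the replicates.

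**Figure D1:**
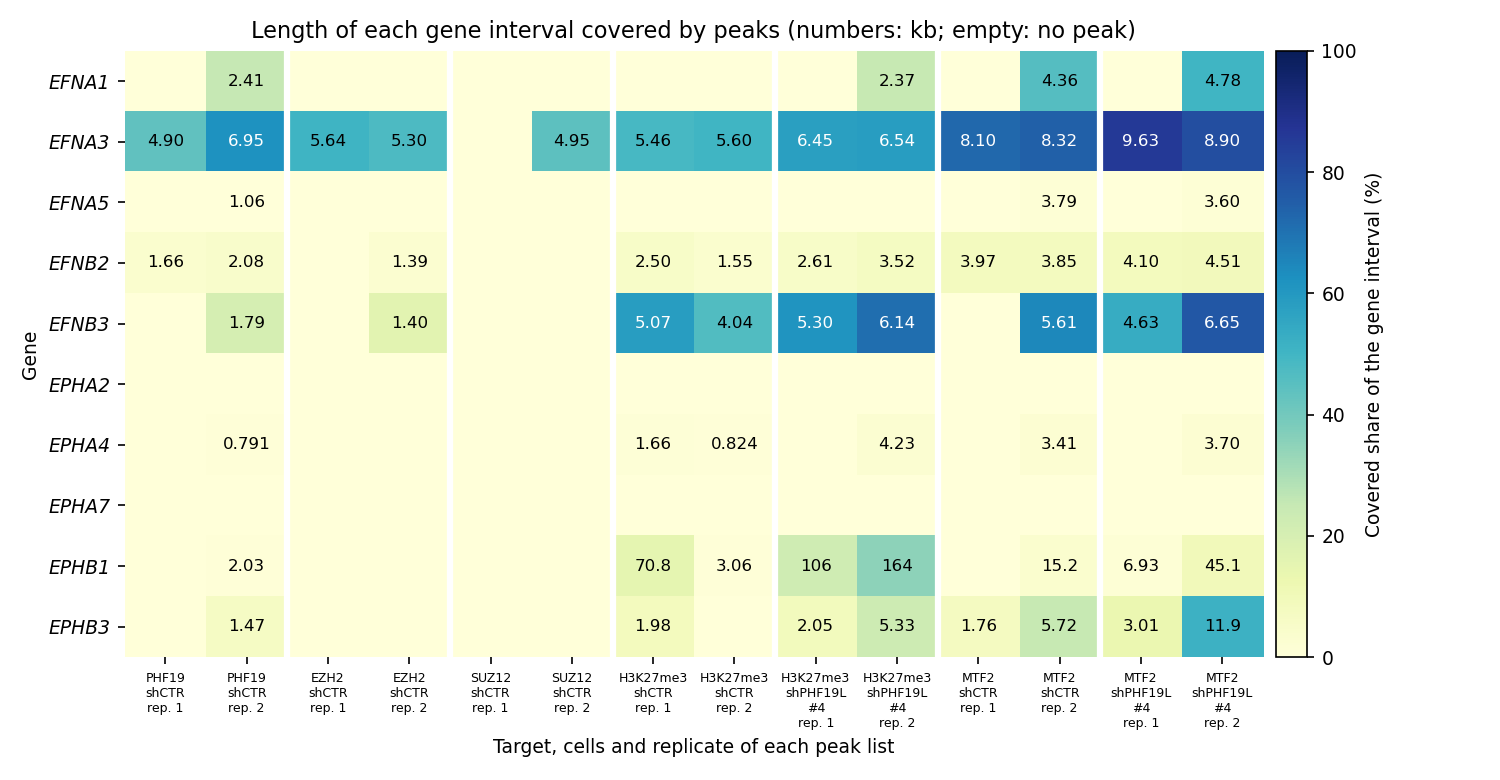
Length of each member's stretch covered by peaks (numbers, kb) in the 14 peak lists (columns, by target, cells and replicate), with the colour giving the covered share of the stretch in percent. EFNA3 is covered in 13 of the 14 lists, whereas EPHA2 and EPHA7 have no peak in any.

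The heat map of covered length shows these contrasts by gene and list. EFNA3 had a peak in 13 of the 14 lists, EFNB2 in 11, EFNB3 in 9, EPHB1 and EPHB3 in 8 each, EPHA4 in 6, EFNA1 in 4 and EFNA5 in 3. EPHA2 and EPHA7 had none. The lengths of peaks at EFNA1 and EFNA5 came from replicate 2 lists only.

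Among the ephrin-A ligands, EFNA3, which encodes ephrin-A3, held the member region with the highest concentration for PHF19, EZH2 and MTF2 and the 1 member region for SUZ12. EFNA3 lies on chromosome 1 between EFNA4 and EFNA1, at gaps of 9.28 and 40.3 kb. Its promoter is shown because EFNA3 was the 1 member whose start site lay under a PHF19 region of the table. Beside it are the promoters of EPHB3 and EPHA2, at which the PHF19 table had no region. EPHB3 held regions of 3 knockdown tables and EPHA2 of none. The 250 bases before each start were taken from RefSeq (GRCh38.p14), at chr1:155078587-155078836 on the plus strand (EFNA3), chr3:184561535-184561784 on the plus strand (EPHB3) and chr1:16156070-16156319 on the minus strand (EPHA2). Capitals mark matches to GCGCG on either strand (CGCGC when read on the printed strand), overlapping matches included.
EFNA3 promoter: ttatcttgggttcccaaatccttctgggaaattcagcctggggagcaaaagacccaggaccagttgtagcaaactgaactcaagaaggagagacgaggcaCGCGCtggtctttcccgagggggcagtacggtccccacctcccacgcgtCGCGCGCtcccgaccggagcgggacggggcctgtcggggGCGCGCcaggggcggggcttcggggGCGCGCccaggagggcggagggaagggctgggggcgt
EPHB3 promoter: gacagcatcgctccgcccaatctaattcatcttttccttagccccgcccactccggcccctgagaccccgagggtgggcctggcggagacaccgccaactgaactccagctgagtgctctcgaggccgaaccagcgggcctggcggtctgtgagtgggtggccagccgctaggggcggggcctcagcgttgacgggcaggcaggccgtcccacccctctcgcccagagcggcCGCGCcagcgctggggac
EPHA2 promoter: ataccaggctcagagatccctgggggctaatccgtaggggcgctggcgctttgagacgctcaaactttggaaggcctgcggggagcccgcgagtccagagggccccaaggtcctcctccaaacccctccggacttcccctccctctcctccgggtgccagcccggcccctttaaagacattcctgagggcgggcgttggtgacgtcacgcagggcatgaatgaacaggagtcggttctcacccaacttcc

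These 250 bases held 23 CpG and 8 GCGCG matches at EFNA3, 21 CpG and 1 match at EPHB3, and 15 CpG and 0 matches at EPHA2. With the 50 bases after the start included, EPHA2 held 2 matches and EPHB3 1, so the order of this pair depended on the window. Absence of a match says only that these letters are not in the window. RefSeq had 12 promoter windows of 300 bases (250 before and 50 after the start) for 9 members, and none was matched to EFNB3. EPHA4 and EPHA7 had more than 1 window each. All windows together came from 27305 genes, more than the 20136 protein-coding genes used above, so the member windows and all windows are unlike sets. GCGCG occurred in 10 of the 12 windows (83.3%) and in 14286 of all 35116 windows (40.7%). The member windows held 12 to 49 CpG with a median of 25, against a median of 14 over all windows, where the quartiles were 4 and 28. The richest member windows were those of EFNB2 (49 CpG) and EFNA5 (47 CpG), and of this pair EFNB2 alone held a PHF19 region. The windows did not reach the PHF19 region of EFNB2, which began 341 bp after the start site. EFNA5 had a PHF19 peak in replicate 2, though no listed region. Whether CpG number bears on PHF19 was not tested.

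At EFNA3 the PHF19 region spanned chr1:155050467-155057411 (hg19), from 846 bp upstream of the start site to 6098 bp downstream, and covered 233 bp of exon and 5866 bp of intron. The mean PHF19 concentration there was 9.30 against 7.34 in input, a difference of 1.96 on the log2 scale, where all 1245 regions of the table had a median difference of 1.58 (quartiles 1.33 and 2.01). By ChIP concentration the region ranked 28 of 1245, and 52 once its length was taken out by expressing concentration per kb. Its input concentration was high as well, at rank 12, and its difference ranked 336. The same stretch belongs to the readthrough gene EFNA4-EFNA3. The amplicon that the study used for ChIP-qPCR at EFNA3 is shown because it marks where in the gene binding was assayed. It lay in an intron, from 2757 to 2911 bp after the start, at chr1:155054070-155054224 on the plus strand of hg19, inside the regions of 4 tables (PHF19, EZH2, SUZ12 and MTF2), and held 6 CpG. Capitals mark the primers.
EFNA3 amplicon: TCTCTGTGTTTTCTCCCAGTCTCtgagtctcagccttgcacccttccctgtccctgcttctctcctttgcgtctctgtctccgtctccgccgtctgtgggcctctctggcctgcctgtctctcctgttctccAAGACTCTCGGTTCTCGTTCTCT

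Peaks covered 4.90 and 6.95 kb of the EFNA3 stretch in the PHF19 lists of replicates 1 and 2, and 5.64 and 5.30 kb in the EZH2 lists. The SUZ12 list of replicate 1 had no peak there, and that of replicate 2 covered 4.95 kb. H3K27me3 covered 5.46 and 5.60 kb in shCTR cells and 6.45 and 6.54 kb in shPHF19L#4 cells. Both knockdown lengths were thus above both control lengths. MTF2 covered 8.10 and 8.32 kb in shCTR cells and 9.63 and 8.90 kb in shPHF19L#4 cells, again without overlap of the groups.

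Mean EZH2 concentration at EFNA3 was 9.10 in shCTR and 10.46 in shPHF19L#4 cells, a difference of 1.36, and the table's upper quartile was 1.36. For SUZ12 the concentrations were 8.22 and 8.96, a difference of 0.74, below the table's lower quartile of 0.82. For MTF2 they were 10.87 and 11.75, a difference of 0.88 beside a table median of 0.87. The EZH2 difference was thus on the high side of its table, the MTF2 difference near the median and the SUZ12 difference on the low side. Per kb its shCTR level ranked 18 of 2408 for EZH2, 5 of 508 for SUZ12 and 40 of 2546 for MTF2, while its differences ranked 600, 436 and 1186. No region of the H3K27me3 table lay at EFNA3, although all 4 lists of the mark had a peak there.

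EFNA1, which encodes ephrin-A1, a ligand of the EphA2 receptor, had peaks in 4 replicate 2 lists. They covered 2.41 kb for PHF19, 2.37 kb for H3K27me3 in shPHF19L#4 cells, and 4.36 and 4.78 kb for MTF2 in shCTR and shPHF19L#4 cells. No replicate 1 list had a peak at EFNA1, and the nearest PHF19 region of the table was that of EFNA3, 40.4 kb away. EFNA5, which encodes ephrin-A5, known for its part in axon guidance, had peaks in 3 replicate 2 lists. The PHF19 peak there covered 1.06 kb well inside the gene, and the MTF2 peaks covered 3.79 and 3.60 kb in shCTR and shPHF19L#4 cells. Neither EFNA1 nor EFNA5 had a region in any DiffBind table or in both replicates of any target.

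**Figure D2:**
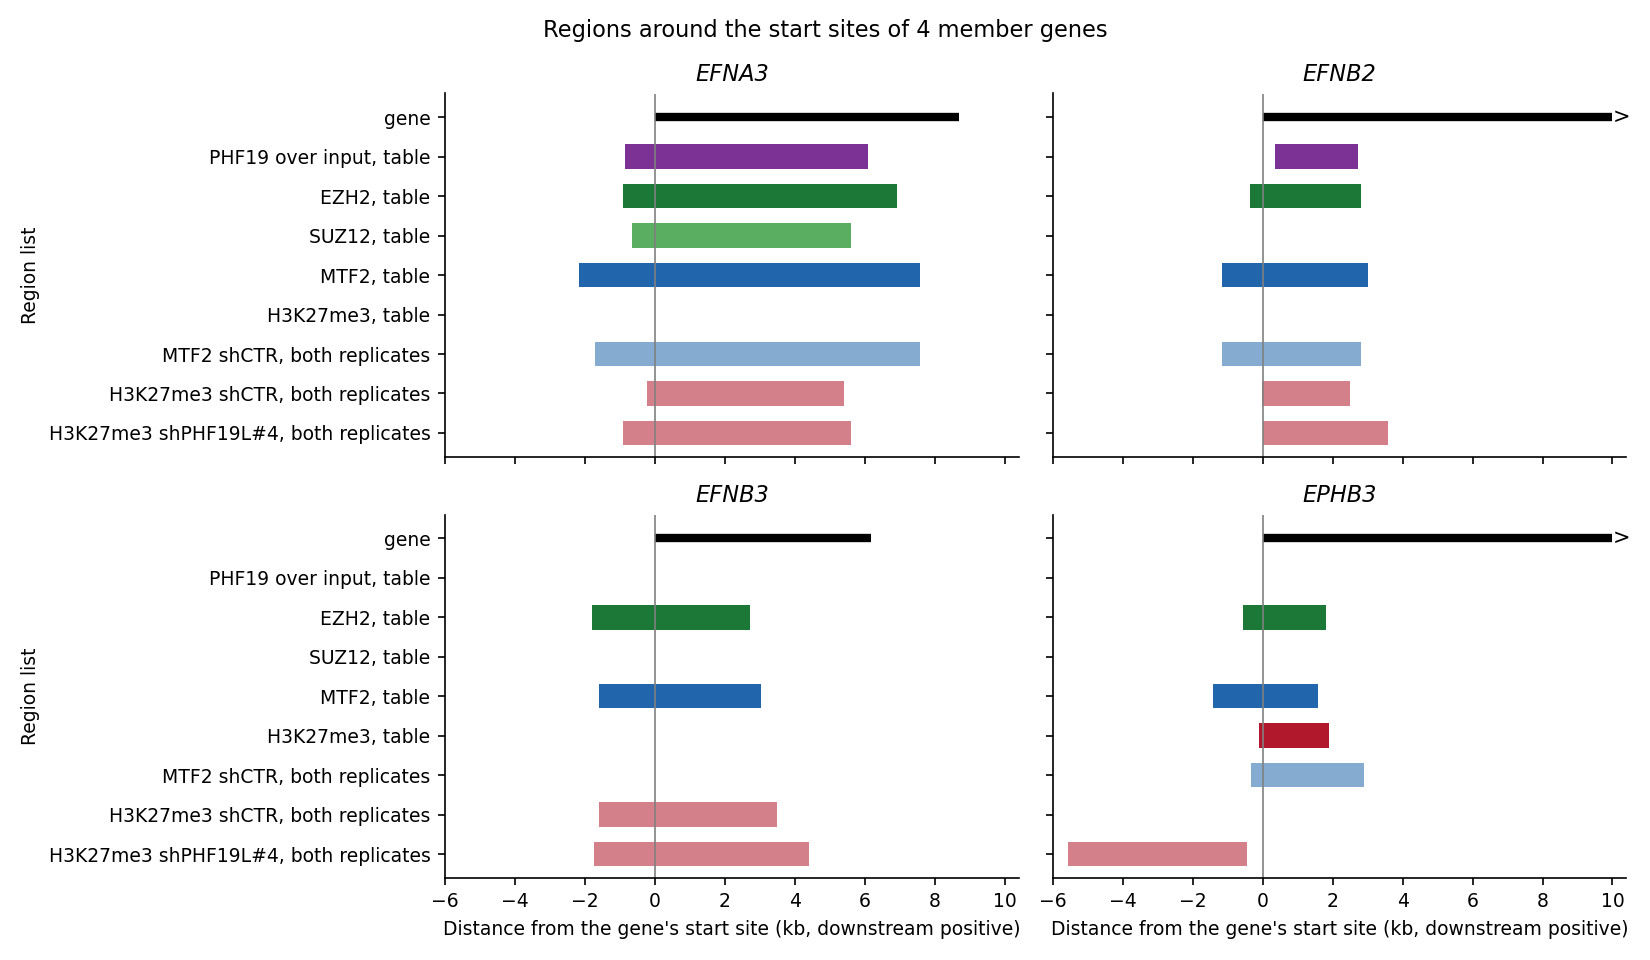
Regions around the start sites of EFNA3, EFNB2, EFNB3 and EPHB3, with distance from the start site in kb on the x axis (downstream positive) and 1 row for the gene, each DiffBind table and 3 sets of regions called in both replicates. The regions of EFNA3 run from upstream of the start site to over 5 kb inside the gene, PHF19 bars appear at EFNA3 and EFNB2, and EPHB3 alone has a bar of the H3K27me3 table.

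Of the ephrin-B ligands, EFNB2 encodes ephrin-B2, known as a marker and regulator of arterial vessels. Its PHF19 region, at chr13:107185284-107187669 (hg19), began 341 bp after the start site and ended 2726 bp after it, and so lay beside the start and not over it, as the map of start sites shows. The mean PHF19 concentration was 6.50 against 4.77 in input, a difference of 1.73, and the region ranked 587 of 1245 by ChIP concentration. This placed EFNB2 near the middle of the table. The region held 8.30 CpG per 100 bp against a table median of 5.14. The intronic stretch of 200 bases with the most CpG in it, 30, is shown from chr13:107185535-107185734 on the minus strand of hg19, where regions of 3 tables (PHF19, EZH2 and MTF2) overlap. It is set beside the middle 200 bases of the EZH2 region of EPHB1, at chr3:134886450-134886649 on the plus strand, intronic too, with 1 CpG and inside regions of 2 tables (EZH2 and MTF2). The pair was chosen after the values were seen, and by different rules, the richest stretch at EFNB2 and the middle at EPHB1. It therefore overstates the gap between whole regions. The EZH2 regions of EFNB2 and EPHB1 held 9.98 and 0.788 CpG per 100 bp. Capitals mark CpG.
EFNB2 intron: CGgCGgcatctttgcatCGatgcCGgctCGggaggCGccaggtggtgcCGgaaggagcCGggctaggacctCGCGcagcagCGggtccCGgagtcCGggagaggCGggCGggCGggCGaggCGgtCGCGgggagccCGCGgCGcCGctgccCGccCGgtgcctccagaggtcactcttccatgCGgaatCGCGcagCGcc
EPHB1 intron: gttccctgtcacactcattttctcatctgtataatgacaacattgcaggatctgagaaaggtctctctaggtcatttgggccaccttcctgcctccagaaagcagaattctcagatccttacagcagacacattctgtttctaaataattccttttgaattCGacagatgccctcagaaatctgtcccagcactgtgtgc

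PHF19 peaks covered 1.66 and 2.08 kb of EFNB2 in replicates 1 and 2. The EZH2 list of replicate 1 had no peak and that of replicate 2 covered 1.39 kb, and neither SUZ12 list had a peak. H3K27me3 covered 2504 and 1547 bp in shCTR cells and 2607 and 3519 bp in shPHF19L#4 cells. The groups did not overlap, but the longer control and the shorter knockdown length lay close together. MTF2 covered 3.97 and 3.85 kb in shCTR cells and 4.10 and 4.51 kb in shPHF19L#4 cells, also without overlap. Mean EZH2 concentration at EFNB2 was 6.39 in shCTR and 7.81 in shPHF19L#4 cells, a difference of 1.42. For MTF2 the concentrations were 8.62 and 9.53, a difference of 0.91. The EZH2 difference lay above the table's upper quartile of 1.36, and the MTF2 difference lay inside the quartiles of 0.73 and 1.02.

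EFNB3, which encodes ephrin-B3, known as a midline cue for axons of the spinal cord, had no region in the PHF19 table. The PHF19 list of replicate 2 covered 1.79 kb and that of replicate 1 had no peak, and the EZH2 lists gave 1.40 kb in replicate 2 and no peak in replicate 1. H3K27me3 covered 5.07 and 4.04 kb in shCTR cells and 5.30 and 6.14 kb in shPHF19L#4 cells, without overlap. For MTF2 the shCTR lists had no peak in replicate 1 and 5.61 kb in replicate 2, and the shPHF19L#4 lists had 4.63 and 6.65 kb. Here the groups overlapped. Mean EZH2 concentration was 6.60 in shCTR and 8.01 in shPHF19L#4 cells, a difference of 1.41. The MTF2 concentrations were 8.20 and 9.19, a difference of 0.99. The EZH2 region began 1790 bp upstream of the start site and also overlapped WRAP53, so its values cannot be assigned to 1 of these 2 genes. With 3.17 CpG per 100 bp it held fewer CpG than the table median of 5.10.

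No EphA receptor among the members had a region in a DiffBind table. EPHA2, the receptor of ephrin-A1 and a well-known kinase of epithelial cells, had no peak in any of the 14 lists. The same held for EPHA7, a receptor known from the developing brain. EPHA4, which binds ligands of both the A and the B class, had peaks in 6 lists. H3K27me3 peaks over its start site covered 1.66 and 0.824 kb in shCTR cells. In shPHF19L#4 cells replicate 1 had no peak and replicate 2 covered 4.23 kb, so the groups overlapped. MTF2 peaks were called in replicate 2 alone, over 3.41 kb in shCTR and 3.70 kb in shPHF19L#4 cells, and the PHF19 list of replicate 2 had a peak of 0.791 kb. EPHA4 was the 1 member with a control H3K27me3 region in both replicates and no such region in the knockdown cells. Its control peaks were weak, with MACS scores of 73.6 and 68.4, and the region was lost at a score of at least 100. The knockdown peaks of replicate 2 scored up to 219.6, while replicate 1, whose H3K27me3 lists were closer in size, had no knockdown peak. The replicates thus differed at EPHA4.

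Of the EphB receptors, EPHB1 has ephrin-B proteins as its ligands. Its cover by H3K27me3 was the longest of the members in each list except replicate 2 of shCTR cells. In that list EFNA3, with 5.60 kb, and EFNB3, with 4.04 kb, had more. As a share of the stretch, the cover of EPHB1 ran from 0.654% to 35.0% and was below that of EFNA3 in each list. H3K27me3 covered 70.8 and 3.06 kb of EPHB1 in shCTR cells, in 27 and 3 peaks. In shPHF19L#4 cells it covered 106 and 164 kb, in 35 and 55 peaks. Both knockdown lengths were above both control lengths, although the replicates of the control cells lay far apart. With a peak of each replicate required, EPHB1 held 3 regions in shCTR and 28 in shPHF19L#4 cells, beside 9256 and 22205 over the genome. The control peaks of replicate 2 behind these 3 regions scored 50.4, 63.2 and 72.2, so that EPHB1, like EPHA4, had no such control region at a MACS score of at least 100. The smaller control list held 15994 peaks in all, and its part in this difference was not tested.

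**Figure D3:**
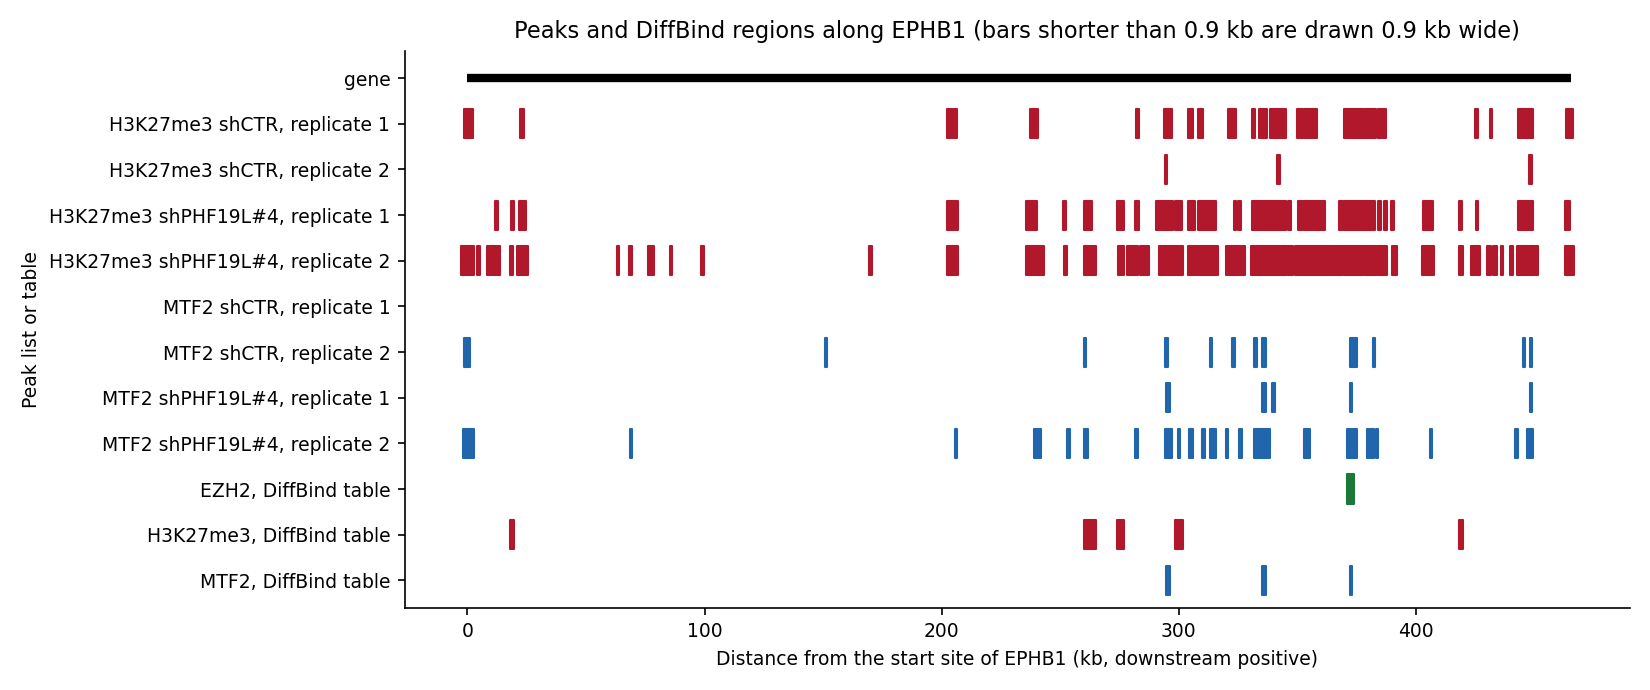
Peaks of H3K27me3 and MTF2 in each list and regions of 3 DiffBind tables along EPHB1, with distance from the start site in kb on the x axis (downstream positive) and 1 row for each list or table. Most H3K27me3 peaks lie in the part of the gene beyond 200 kb, and the regions of the EZH2 and MTF2 tables lie there too.

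The map of EPHB1 shows peaks along much of the gene as well as at its start site. The highest-scoring MTF2 peak of both replicate 2 lists lay over the start site, with scores of 444.7 in shCTR and 1327 in shPHF19L#4 cells. H3K27me3 peaks lay there in replicate 1 of shCTR cells, with a score of 58.6, and in replicate 2 of shPHF19L#4 cells, with 1475. No region of a DiffBind table lay over the start site. The H3K27me3 table listed 5 intronic regions, with concentrations from 4.75 to 6.77 in shCTR and from 5.85 to 7.72 in shPHF19L#4 cells, and differences from 0.95 to 1.10. The nearest of them to the start site began 18126 bp inside the gene. The table's median difference was 1.13 and its lower quartile 1.02, so all 5 regions of EPHB1 lay below the median. None of these 5 regions overlapped an H3K27me3 peak of a shCTR list, and each was a region called in both shPHF19L#4 replicates. They may therefore be listed through knockdown calls alone. Such a selection itself favours a higher knockdown level, so their direction and size show no change particular to EPHB1. The EZH2 region lay from 370925 to 373971 bp inside the gene, with concentrations of 5.33 in shCTR and 6.43 in shPHF19L#4 cells, a difference of 1.10. A region of the MTF2 table overlapped it, with concentrations of 5.01 and 6.11, a difference of 1.10. The other MTF2 regions of EPHB1 had differences of 0.63 and 0.87. The MTF2 lists had no peak in replicate 1 and 15.2 kb in replicate 2 in shCTR cells, and 6.93 and 45.1 kb in shPHF19L#4 cells, so the groups overlapped. The listed regions of EPHB1 also held few CpG. The EZH2 region held 0.788 CpG per 100 bp against a table median of 5.10, and the H3K27me3 regions 0.327 to 0.970 against 3.51. They lay inside the gene, whereas the listed regions of the other members lay over or close to start sites. The promoter window of EPHB1 held 19 CpG, above the median of 14 over all windows. No PHF19 region of the table lay at EPHB1.

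EPHB3, a receptor of ephrin-B ligands known for the sorting of cells in the intestinal crypt, had its regions over the start site. Mean EZH2 concentration there was 5.46 in shCTR and 7.31 in shPHF19L#4 cells. The difference of 1.85 ranked 50 of 2408 in the table, and the control level ranked 1822, or 1803 per kb. Neither EZH2 list of shCTR cells had a peak at EPHB3. The listed control level of EZH2 was thus low at EPHB3 and high at EFNA3, and the difference was larger at EPHB3. With no control peak, the EPHB3 region may be listed through knockdown calls alone, whereas EFNA3 had a peak in both control lists. Such a selection itself favours a low control level and a large difference. The contrast of these 2 genes therefore shows no difference in response. For H3K27me3 the concentrations at EPHB3 were 6.08 and 7.24, a difference of 1.16. For MTF2 they were 7.65 and 8.63, a difference of 0.98. Both lay inside the quartiles of their tables.

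H3K27me3 covered 1.98 kb of EPHB3 in replicate 1 of shCTR cells, and replicate 2 had no peak. In shPHF19L#4 cells it covered 2.05 and 5.33 kb, so the groups did not overlap, with little between the values of replicate 1. The region called in both knockdown replicates lay upstream of the start site, whereas the DiffBind region ran from 101 bp upstream to 1899 bp downstream. The upstream peak of knockdown replicate 1 was weak, with a MACS score of 61.8 beside 68.0 in control replicate 1. The knockdown region was therefore lost at a score of at least 100. MTF2 covered 1.76 and 5.72 kb in shCTR cells and 3.01 and 11.9 kb in shPHF19L#4 cells, and here the groups overlapped. A PHF19 peak of 1.47 kb over the start was called in replicate 2 and none in replicate 1. The nearest PHF19 region of the table lay 19.7 kb outside the gene's stretch, at chr3:184319890-184322687, with a concentration of 6.80 against 4.97 in input.

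**Figure D4:**
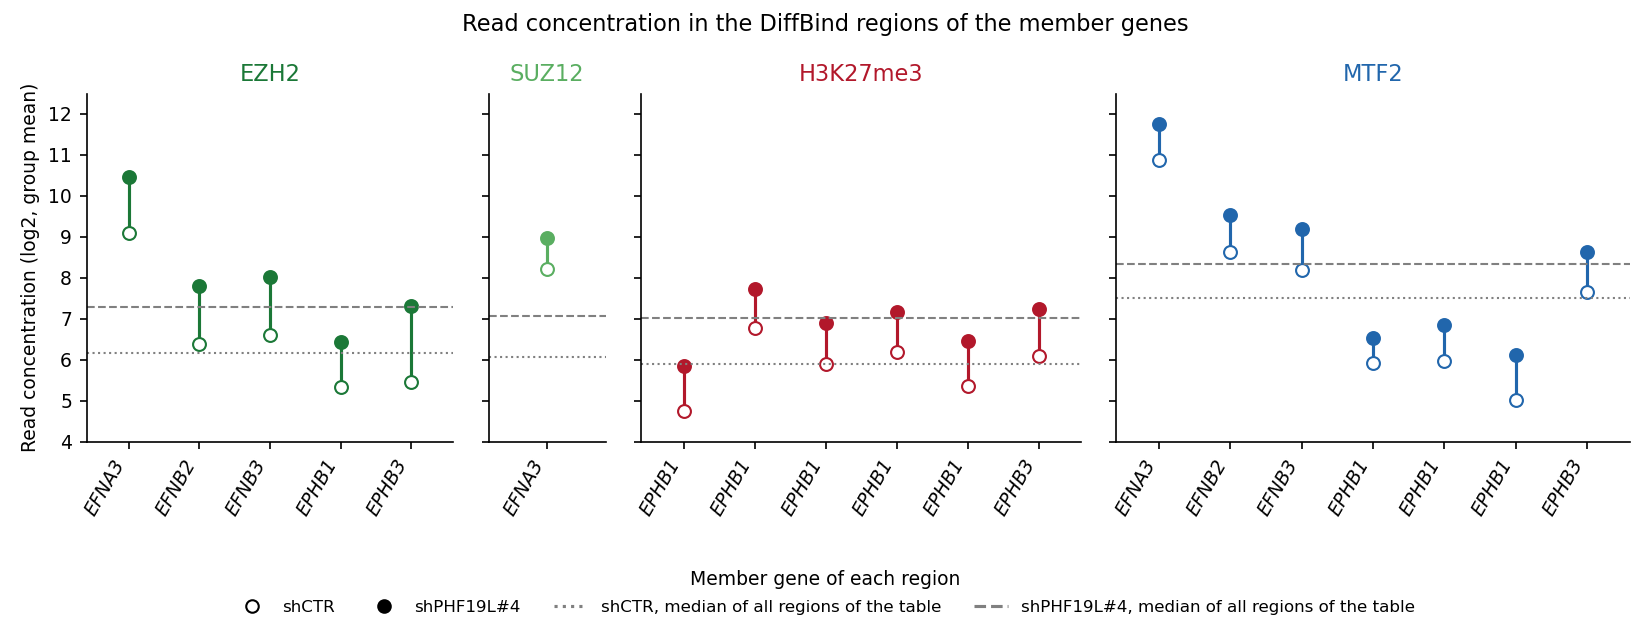
Mean read concentration (log2, y axis) in shCTR (open circles) and shPHF19L#4 cells (filled circles) for each member region of the EZH2, SUZ12, H3K27me3 and MTF2 tables (x axis), with lines at the medians of all regions of the table. The tables hold group means, so no error can be drawn, and EFNA3 is the highest member in the EZH2 and MTF2 panels in both kinds of cells.

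Set side by side in the plot of concentrations, the members kept wide differences in level. For EZH2 the shCTR concentrations of the 5 members ran from 5.33 (EPHB1) to 9.10 (EFNA3) around a table median of 6.15. For MTF2 they ran from 5.01 (a region of EPHB1) to 10.87 (EFNA3) around a table median of 7.50. Part of this range is region length, since a concentration counts the reads of a whole region. Per kb, the shCTR concentrations for EZH2 ran from 3.72 (EPHB1) to 6.13 (EFNA3) around a table median of 4.52, and those for MTF2 from 5.05 (a region of EPHB1) to 7.58 (EFNA3) around 5.94. The PHF19 concentration per kb was 6.50 at EFNA3 and 5.25 at EFNB2, against a table median of 5.24.

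**Figure D5:**
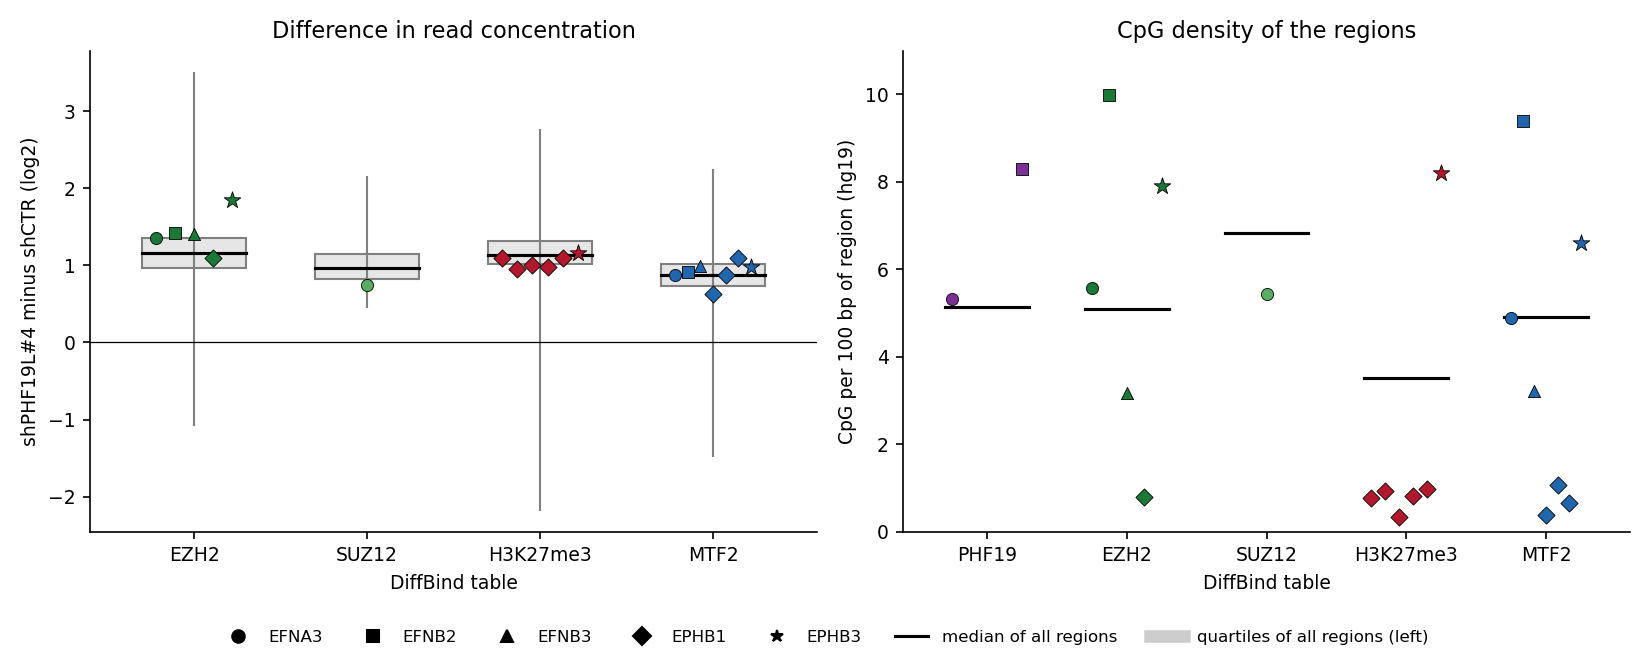
Left, difference in read concentration (shPHF19L#4 minus shCTR, log2) of each member region in the 4 knockdown tables, over the median, quartiles (box) and full range (line) of all regions. Right, CpG per 100 bp of the same regions and of the PHF19 regions, with the table medians as bars, where EFNB2 and EPHB3 lie high and EPHB1 low.

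The plot of differences shows that the members lay within the range of their tables. The median difference over member regions was 1.41 for EZH2 (5 regions, 1.10 to 1.85) against 1.16 over the table. For H3K27me3 it was 1.06 (6 regions, 0.95 to 1.16) against 1.13, and for MTF2 it was 0.91 (7 regions, 0.63 to 1.10) against 0.87. The single SUZ12 region, at EFNA3, had 0.74 against 0.96. None of the 6 H3K27me3 regions overlapped a shCTR peak of the mark, and no shCTR EZH2 list had a peak at EPHB1 or EPHB3. Those regions may be listed through knockdown calls alone, which itself favours a higher knockdown level. The MTF2 regions of EFNB3 and EPHB1 had the exact bounds of shPHF19L#4 replicate 1 peaks. In shCTR cells, replicate 2 alone had MTF2 peaks that overlapped them. Their listing may thus also rest on knockdown calls. The differences of all these regions therefore describe the listed regions only. Of the 5 members with an EZH2 region, EFNB2, EFNB3 and EPHB3 lay above the upper quartile, EFNA3 lay at it and EPHB1 lay inside the quartiles. The tables give no value per replicate, so these differences carry no error and were not tested. From the lowest CpG density to the highest, the 5 EZH2 regions were those of EPHB1 with 0.788 CpG per 100 bp, EFNB3 with 3.17, EFNA3 with 5.58, EPHB3 with 7.90 and EFNB2 with 9.98. Their differences in this order were 1.10, 1.41, 1.36, 1.85 and 1.42. For MTF2 the members had the same order of CpG density, and the 3 EPHB1 regions, with 0.386, 0.660 and 1.07 CpG per 100 bp, had differences of 0.63, 1.10 and 0.87. The other MTF2 differences, in order of CpG density, were 0.99 (EFNB3), 0.88 (EFNA3), 0.98 (EPHB3) and 0.91 (EFNB2). For both targets the EPHB1 regions lay inside the gene and those of the other members over start sites. At EPHB1, CpG density and position in the gene therefore cannot be told apart.

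Across the peak lists, H3K27me3 covered a longer stretch in both knockdown lists than in both control lists at 5 of the 7 members with a peak of the mark (EFNA3, EFNB2, EFNB3, EPHB1 and EPHB3). The same held for 27.5% of the 6076 genes with a peak of it, and a shorter stretch in both knockdown lists was found at 0 members and 0.214% of these genes. This count was added after the values were seen. Divided by the total length that each list covered, the order held at 2 members, EPHB1 and EPHB3, against 12.3% of the genes. At EFNA3, EFNB2 and EFNB3 the shares of the groups overlapped. For MTF2 the longer stretch held at 2 of 8 members, EFNA3 and EFNB2, against 3.58% of 12247 genes, and a shorter one at 0 members and 0.310% of genes. As a share of the list it held at 1 member, EPHB1, against 4.71%. Because the lists of replicates 1 and 2 differed in size, the cells were also compared within each replicate number. H3K27me3 then covered a longer stretch in the knockdown list of both pairs at the same 5 members, against 29.8% of genes. For MTF2 this held at 5 members, EFNA3, EFNB2, EFNB3, EPHB1 and EPHB3, against 13.0% of genes. At EFNB3, EPHB1 and EPHB3 the groups thus overlapped for MTF2 across replicates, while each replicate had the longer cover in the knockdown cells.

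The rest of the family gives a setting for these values. Of the 12 other family genes, 7 had a region in a table or in both replicates of a target, EFNA2, EFNB1, EPHA1, EPHA6, EPHA8, EPHA10 and EPHB6, and 5 had none. Among the members 6 had such a region, and among all protein-coding genes 21.6%. EPHA8 held regions of the EZH2, SUZ12 and MTF2 tables, with EZH2 differences of 1.02 and 1.21, and EFNA2 an EZH2 region of 8.19 in shCTR and 9.82 in shPHF19L#4 cells. EPHB6 encodes a family receptor without kinase activity. Its EZH2 concentrations were 5.44 and 7.16, a difference of 1.72 beside 1.85 at EPHB3, and its MTF2 concentrations were 7.06 and 8.46, a difference of 1.40 that was above those of the members. No H3K27me3 region was listed for it. No other family gene held a PHF19 region. In all 22 genes, 8 held an EZH2 region and 8 an MTF2 region. Among 25 genes of Eph and ephrin effectors and partners, regions of the PHF19, EZH2, SUZ12, H3K27me3 and MTF2 tables lay at 1, 3, 0, 1 and 3 genes, near the shares of all genes given above (4.65%, 9.55%, 2.44%, 3.53% and 9.03%). The gene with a PHF19 region was KALRN, which encodes the exchange factor kalirin. PHF19 concentration there was 5.48 against 3.55 in input, over 550 kb inside the gene. EZH2 concentration at its start site was 6.09 in shCTR and 7.16 in shPHF19L#4 cells. In the EZH2 region that overlapped the PHF19 region it was 5.97 and 6.82. MTF2 concentrations were 7.78 and 8.53 at the start site, and 6.93 and 7.58 in the region that overlapped the PHF19 region.

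For the members with regions in 3 knockdown tables, the genes with the nearest concentrations in the same tables were sought by Euclidean distance over 6 values. Nearest to EFNA3 among 485 genes were EFNA4-EFNA3, at 0.00 because it shares the same regions, BCL11A at 0.17 and FLRT2 at 0.37. Nearest to EPHB3 among 294 genes were PTPRN2 at 0.43, POP5 at 0.68 and CGNL1 at 0.70. For EPHB1 the nearest among 294 genes were TRPM2 at 0.83, MAGI2 at 0.89 and LYL1 at 0.93. These distances describe likeness of level in these tables and nothing else.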

How the data were processed

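The authors aligned reads with Bowtie, and the submitters' processing notes also name hg19 and dm3. Peak lists were deposited per replicate. Their score is the MACS score that the authors' peak caller wrote, except for PHF19 replicate 1, where the score is not defined in the sources used here, and MTF2 replicate 1, which carries none. The DiffBind tables, deposited by the authors, hold log2 mean read concentrations per group for regions past the authors' thresholds, and whether the counts were scaled to the fly chromatin is not given in the sources used here. Their columns of fold change, P value and FDR hold the authors' own comparisons and were not used. Columns of values per sample left unused numbered 0. Knockdown peak lists of PHF19, EZH2 and SUZ12, inputs, IgG and RNA-seq were not analysed here. Which samples belong together was taken from the labels.

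Genes came from GENCODE release 44 mapped to hg19, protein-coding, with 1 record per symbol. Peaks of 2 replicates were merged at an overlap of 1 bp, and a region called in both replicates needed a peak of each. Concentration per kb is the log2 concentration minus the log2 of region length in kb. No test was made, since the tables hold group means and the lists 2 replicates per group. Depth is unknown. Members and gene lists were chosen with earlier results of these data known. The named genes were the members, other family genes with a region, effectors with a PHF19 region, and the 3 nearest genes by concentration. Alternatives were replicates, overlap, start-site window, MACS score, averaging per gene and pairing by replicate number. Scripts for overlaps and covered length were checked on simulated data. Python 3.11.15, numpy 2.4.6, pandas 2.3.3, pysam 0.24.0 and matplotlib 3.10.9 were used.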

Additional observations from a re-analysis of the deposited data

How the results depend on the processing

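Of 71 alternatives for 17 results, 47 left the value equal or, for counts, within 1.5 times, 24 moved it and 0 reversed a direction. Leaving out a replicate was tried for 9 counts of members and moved 6 of them. With 1 replicate left out, members with PHF19 went from 2 to between 2 and 8, with EZH2 in shCTR cells from 1 to between 1 and 3, with SUZ12 from 0 to between 0 and 1, with MTF2 in shCTR cells from 3 to between 3 and 8 and in shPHF19L#4 cells from 5 to between 5 and 8. Regions called in either replicate gave 3 members for EZH2, 1 for SUZ12, and 8 for MTF2 in shCTR and 8 in shPHF19L#4 cells. A MACS score of at least 100 left 3 members with control H3K27me3 and 4 with knockdown H3K27me3. Within 2.5 kb of the start site, 1 member held a listed H3K27me3 region, and the median differences were 1.42 (EZH2), 1.16 (H3K27me3) and 0.95 (MTF2). Averaging per gene gave 1.09 for H3K27me3, and the upper part of each table by concentration gave 0.98 for H3K27me3 and 0.95 for MTF2. For covered length, alternatives chosen after seeing the data gave 2 (H3K27me3) and 1 (MTF2) members as a share of the list, 3 and 1 near the start site, and with 1 replicate left out 5 to 7 and 5 to 7. The cause of these moves was not tested. With 1 replicate left out, the share of all genes is that of the list kept. In replicates 1 and 2 it was 3.79% and 23.4% for PHF19, 3.28% and 5.05% for EZH2 and 1.10% and 0.973% for SUZ12. For MTF2 it was, in the same order, 5.87% and 49.6% in shCTR and 10.5% and 51.0% in shPHF19L#4 cells. Regions of either replicate meet at least as many genes as those of replicate 2. No share is given for the counts of either replicate, at the MACS score or near the start site. The same holds for covered length with 1 replicate left out. Those counts are therefore not set against a background. Paired by replicate number, added later as well, the counts were 5 for H3K27me3 and 5 for MTF2. No paired analysis was possible of the concentrations, because the tables hold group means only. The unknown depth limits what a missing peak can show.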
